A study of Mus musculus with 13 samples.

Results

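A set of 10 immediate-early transcription factor genes were followed by symbol through all 13 libraries of the series: the nuclear receptor genes Nr4a1, Nr4a2 and Nr4a3, the AP-1 genes Fos, Fosb, Jun, Junb and Atf3, and the zinc finger genes Egr1 and Egr3. They are 10 of the 25715 gene symbols listed in the deposited tables, and all 10 passed the filter on low counts in both sets of endothelial cells (ECs). Tumor ECs were CD31+/CD105+ cells, gated as CD45-negative in the study's methods, sorted from orthotopic tumors of E0771 cells, a mouse mammary carcinoma line, at 100 cells per library. In the Apelin-depleted group (n = 3 libraries), E0771 cells carrying shApln grew in Apln-/- C57BL/6J mice, whose deletion is present in all cells. In the Apelin wild-type group (n = 6), E0771 cells carrying shRenilla grew in Apln+/+ mice, so Apelin was removed from tumor and host together and the contributions of tumor and host cannot be told apart. Sprout ECs were CD31+ cells sorted from embryoid bodies of mouse embryonic stem cells with a gene trap in Apln, sprouting with VEGF at 30 ng/ml. In the libraries labelled Apln STOP (n = 2, titled sense) the trap lay in sense and, by the study's legends, DMSO was given. In those labelled Apln GO (n = 2, titled antisense) the trap had been turned to antisense with Cre. By the same legends these were given Apelin at 1000 nM, so genotype and added Apelin differ together. The trap lines derive from haploid cells, and no label says whether the libraries of a group came from separate animals, tumors or cultures, so p-values measure only the spread between these libraries.

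Immediate-early genes are transcribed within minutes of a stimulus by factors that are already present in the cell, such as SRF, CREB and NFAT. Their products are themselves transcription factors that pass the signal on to later genes. Fos and Jun proteins pair to form AP-1, Atf3 pairs with Jun proteins, Egr proteins are zinc finger factors, and the Nr4a proteins are nuclear receptors that act without a known natural ligand. In ECs these genes respond to VEGF, thrombin and shear stress, and they are also known to be induced while tissue is digested into single cells. By the study's methods, both the tumors and the embryoid bodies were digested with collagenase before sorting. The part of this step in the members' levels was not tested.

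Total counts lay between 4661044 and 14455093 in the tumor libraries and between 12327030 and 16804071 in the sprout libraries, and Apelin-depleted replicate 2 was the deepest tumor library. Levels are given as CPM, counts scaled to the TMM-normalized library size. Apln itself had 2.44 to 12.1 CPM in the 3 Apelin-depleted libraries and 416 to 1033 CPM in the 6 Apelin wild-type libraries, and it was the only gene called in the tumor ECs by edgeR with low counts filtered, while DESeq2 called 19 genes higher and 97 lower. In the sprout ECs the Apln gene did not separate the labels in the direction of its disruption, with 66.1 and 80.2 CPM in the libraries labelled Apln STOP and 58.2 and 65.9 CPM in those labelled Apln GO. The titles of the sprout libraries say sense or antisense only, and the names Apln STOP and Apln GO follow the study's legends. Throughout, labelled Apln STOP means titled sense and labelled Apln GO means titled antisense. Pecam1, which encodes CD31, had 1007 to 1789 CPM in the tumor ECs and 139 to 273 CPM in the sprout ECs. In the sprout libraries Pou5f1, a pluripotency factor, was at 310.0 to 799.9 CPM, above Pecam1 in every library.

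Per length, the members differed widely in level within each set. In the tumor ECs the median over 9 libraries, in CPM per kilobase, was 735 for Fos, 681 for Junb, 545 for Jun, 265 for Atf3, 234 for Egr1, 125 for Nr4a1 and 33.4 for Fosb. Nr4a2 had a median of 3.27, Egr3 of 1.44 and Nr4a3 of 0.409 CPM per kilobase. Some neighbours in this order did not keep it across the libraries, since Fos was above Junb in 4 of 9 libraries, Atf3 above Egr1 in 5 and Egr3 above Nr4a3 in 5. The other neighbours kept their order in 7 or 8 of the 9 libraries. In the sprout ECs, where the deposited TPM gives the level per length, the medians over 4 libraries were 228 for Egr1, 192 for Fos, 113 for Junb, 64.3 for Jun, 47.2 for Fosb, 41.6 for Nr4a1 and 20.9 for Atf3. Egr3, Nr4a2 and Nr4a3 were again lowest, at 1.31, 1.01 and 0.445 TPM. Egr1 was above Fos in 2 of the 4 sprout libraries, and every other pair of neighbours kept its order in 3 or 4.

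The sequences before the start sites are shown as a description, and their part in the members' levels was not tested. RefSeq promoters of the GRCm38.p6 (mm10) build were at hand for 8 of the 10 members. The string TGACG, the first bases of the cAMP response element TGACGTCA, was found on either strand within 250 bases before the start in 7 of the 8, all but Jun, and in 17.8% of the 32851 promoters in the table. The string GCGNGGGCG, which Egr proteins recognise, was found in 3 of the 8 (Nr4a1, Nr4a2 and Fosb) and in 4.7% of all promoters. The string TATAAA was found in 2 of the 8 (Fos and Nr4a2) and in 12.4% of all. No match in this window was found in the 8 for the full TGACGTCA (1.55% of all promoters, and containing TGACG), the AP-1 string TGANTCA (6.75%), the Nr4a string AAAGGTCA (1.34%) or the CArG box of SRF (1.47%). Both strands were searched for each string, and a match is a description of letters only. For Fos, Nr4a1, Nr4a2 and Junb, the stretches that hold all matches of TGACG and GCGNGGGCG are printed 5′ to 3′ on the strand of the gene, with those matches, or their reverse complements, in capitals. They lie at chr12:85473746-85473843 (plus strand) for Fos, chr2:57124054-57124218 (minus strand) for Nr4a2, chr15:101266598-101266825 (plus strand) for Nr4a1 and chr8:84978835-84978869 (minus strand) for Junb. None of these 4 overlaps an annotated exon of GENCODE, while the stretches of Atf3 and Nr4a3, which do, and that of Fosb, which reaches into the RefSeq gene, are not shown. The Nr4a1 stretch lies in an intron of a longer Nr4a1 transcript.
Fos: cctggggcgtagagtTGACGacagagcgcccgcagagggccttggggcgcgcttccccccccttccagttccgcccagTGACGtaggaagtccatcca
Nr4a2: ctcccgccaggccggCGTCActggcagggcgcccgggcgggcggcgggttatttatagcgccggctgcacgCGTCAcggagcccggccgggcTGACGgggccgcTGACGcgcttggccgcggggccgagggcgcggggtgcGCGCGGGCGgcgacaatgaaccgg
Nr4a1: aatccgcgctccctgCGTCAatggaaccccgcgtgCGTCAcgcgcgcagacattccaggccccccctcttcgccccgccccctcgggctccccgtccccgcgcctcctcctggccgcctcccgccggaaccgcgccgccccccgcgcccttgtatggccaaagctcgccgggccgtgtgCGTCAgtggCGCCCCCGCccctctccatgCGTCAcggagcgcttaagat
Junb: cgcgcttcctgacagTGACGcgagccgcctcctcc
The Fos stretch holds 2 TGACG matches, at -129 and -66 counted from the start site to the first base of the match. Nr4a1 and Nr4a2 hold 4 TGACG matches each and 1 GCGNGGGCG match each, and Junb holds a single TGACG match at -106.

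In the tumor ECs, all 10 members had a higher fitted level in the Apelin-depleted libraries, and their median log2 fold change was 0.70 against -0.03 over the 13073 genes tested, and 48.1% of all genes had a fold change above 0. None of the 10 passed the thresholds of an adjusted p of 0.05 and a 2-fold change in edgeR's quasi-likelihood test, where 0% of genes were called higher and 0.00765% lower. An unadjusted p under 0.05 was reached by 3 members, Nr4a2, Fosb and Nr4a1, against 1.87% of genes in that direction. DESeq2 called 1 member, Nr4a2, and 0.131% of genes higher.

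Of the Nr4a genes, Nr4a2 (chr2:57106830-57124003), known for its role in dopamine neurons and as a target of VEGF signalling in ECs, had the largest fitted difference in the tumor ECs. Its levels were 32.5, 23.9 and 72.5 CPM in Apelin-depleted replicates 1 to 3, while the Apelin wild-type libraries ran from 2.12 through a median of 7.56 to 17.5 CPM. The groups did not overlap, which was so for 1.06% of all genes in that direction and for no other member. The log2 fold change was 2.38 (SE 0.62), with an adjusted p of 0.686 in edgeR and 0.0325 in DESeq2, and it was between 0.199 and 0.9996 under the other alternatives. Leaving out any of the 9 libraries gave log2 fold changes between 1.78 and 2.76. The exact two-sided permutation test gave p = 0.0238, the smallest that 84 splits of 3 against 6 libraries allow.

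Nr4a1 (chr15:101253902-101274795), a receptor induced early in activated ECs, was at 448, 577 and 369 CPM in the Apelin-depleted libraries and at 148, 240 and 427 CPM for the lowest, median and highest Apelin wild-type library. Only Apelin wild-type replicate 2 reached into the Apelin-depleted range, and the log2 fold change was 0.88 (SE 0.33, edgeR adjusted p = 0.957). Nr4a3 (chr4:48045078-48086447), the third receptor of the family, was at 2.04, 5.91 and 13.2 CPM against 0, 1.58 and 11.1 CPM. It had 0 counts in Apelin wild-type replicates 5 and 6, and the groups overlapped over nearly their whole range.

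The AP-1 genes overlapped between the groups in each case. Fosb (chr7:19302696-19310118), a Fos protein of AP-1, was at 187, 896 and 86.5 CPM in Apelin-depleted replicates 1 to 3 against 102, 126 and 162 CPM for the lowest, median and highest Apelin wild-type library. Apelin-depleted replicate 2 was far above all other libraries and replicate 3 was below all of them. The fitted log2 fold change was 1.60 (SE 0.49, edgeR adjusted p = 0.906), and without Apelin-depleted replicate 2 it was 0.08.

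Fos (chr12:85473890-85477274), the founding member of AP-1, was at 1575, 3132 and 1445 CPM against 595, 1317 and 1933 CPM for the lowest, median and highest Apelin wild-type library. Junb (chr8:84976909-84978748), a Jun protein with a role in vascular development, was at 1167, 2839 and 1282 CPM against 523, 1150.3 and 1612 CPM. In both genes Apelin-depleted replicate 2 alone stood above every Apelin wild-type library, and replicates 1 and 3 lay within their range.

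Jun (chr4:95049036-95052222), the partner of the Fos proteins, was at 1648, 2025 and 2051 CPM against 731, 1327 and 2436 CPM, and its highest values were those of Apelin wild-type replicates 5 and 6. Atf3 (chr1:191170296-191183333), a stress-induced factor of the ATF family, was at 636, 834 and 524 CPM against 336, 427 and 705 CPM. The log2 fold changes of these 4 genes ran from 0.37 for Jun to 0.71 for Junb, with unadjusted p in edgeR of 0.0796 or more.

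Egr1, which is induced by growth factors through SRF, was at 499, 2292 and 535 CPM in the Apelin-depleted libraries and at 515, 737 and 1428 CPM in the lowest, median and highest Apelin wild-type library. Its fitted log2 fold change was 0.37 (SE 0.45) with all libraries and -0.73 without Apelin-depleted replicate 2. Egr3 (chr14:70077317-70082613), a target of VEGF in ECs, was at 6.63, 8.02 and 3.05 CPM against 0, 2.84 and 12.1 CPM, with 0 or 1 count in 3 of the Apelin wild-type libraries.

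**Figure D1:**
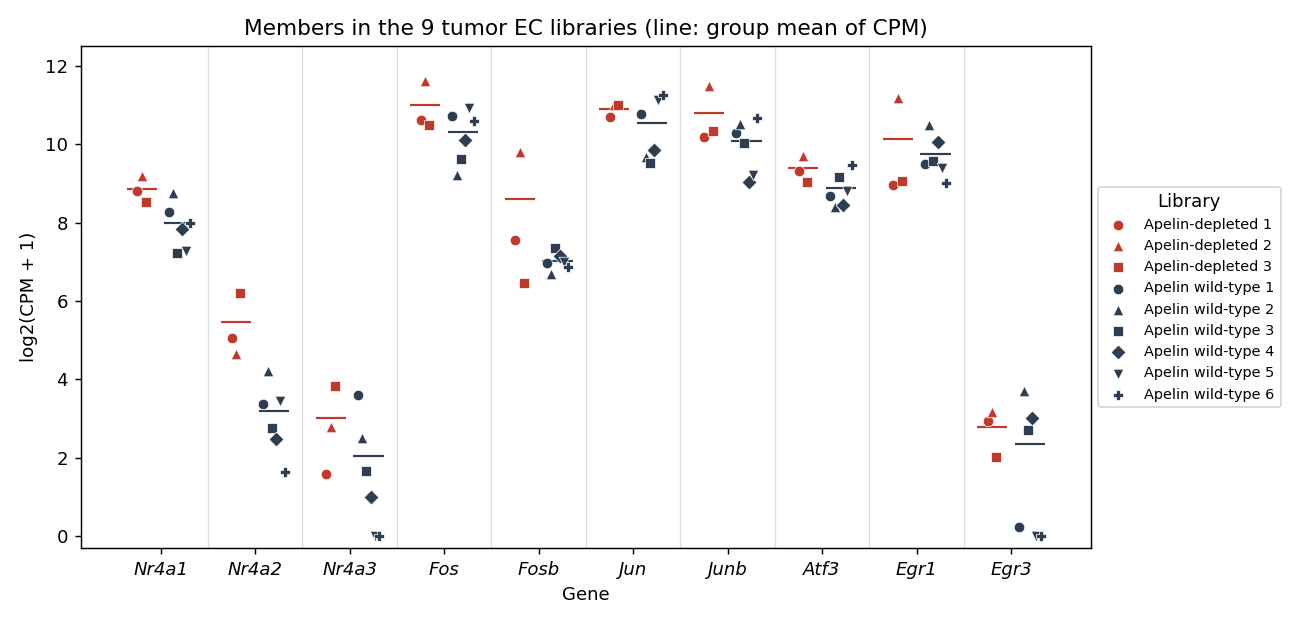
Levels of the 10 members in the 9 tumor EC libraries, as log2(CPM + 1), with a symbol for each replicate, red for Apelin-depleted, dark blue for Apelin wild-type and a line at the log2 of the group's mean CPM plus 1. Nr4a2 alone has no overlap between the groups, and the red triangle of Apelin-depleted replicate 2 is the highest point for 6 genes.

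Summed over the 10 members, Apelin-depleted replicate 2 had 12634 CPM, and the other 8 libraries had 4216 to 7178 CPM. That library was the highest of the 9 for 6 members, and its level relative to the mean of the other Apelin-depleted libraries ranged from 0.456-fold for Nr4a2 to 6.55-fold for Fosb. With 1 CPM added, 4 members and 15.6% of the tested genes were at least 2-fold higher there than in the other Apelin-depleted libraries. Nr4a2 and Nr4a3 were instead highest in Apelin-depleted replicate 3, the library in which Fosb was lowest. Without Apelin-depleted replicate 2, 9 of 10 members still had a fold change above 0, but the median log2 fold change was 0.27 and only Nr4a2 had an unadjusted p under 0.05. In that library the summed level of 14 heat shock genes was 10994 CPM, within the 6949 to 14485 CPM of the Apelin wild-type libraries. The 12 endothelial markers had a positive fitted change in 12 of 12 (median log2 fold change 0.36, 0 called), with summed levels of 10990.2 to 13945 CPM in the Apelin-depleted and 7405 to 11409 CPM in the Apelin wild-type libraries. Taken per 1000 CPM of these markers, Nr4a2 kept groups without overlap (1.88 to 5.20 against 0.208 to 1.78), and the other 9 members overlapped. The 12 mesenchymal and mural markers summed to 5290 CPM in Apelin wild-type replicate 2 and to between 56.7 and 313 CPM in the other 8 libraries. Apelin wild-type replicate 2 had the highest Nr4a1, Nr4a2, Egr1 and Egr3 of its group and the lowest Fos, Fosb and Atf3. Without that library the members' median log2 fold change was 0.95. With all libraries, 10 of 11 mesenchymal and mural markers tested had a lower fitted level in the Apelin-depleted libraries. Their median log2 fold change was -2.22, 0 were called and 1 was lower without overlap. The sort gated out cells with surface CD45, a protein of leukocytes, and the 12 leukocyte markers summed to 163 to 924 CPM in the Apelin-depleted and 79.6 to 886 CPM in the Apelin wild-type libraries. Cd74, the most abundant of them, was at 497 CPM in Apelin-depleted replicate 2, at 136 and 114 CPM in Apelin-depleted replicates 1 and 3 and at up to 803 CPM in the Apelin wild-type libraries. Of 10 leukocyte markers tested, 6 had a fold change above 0 and 4 below, and 2 were lower without overlap between the groups. The 10 epithelial and tumor cell markers summed to 221, 17.8 and 23.4 CPM in Apelin-depleted replicates 1 to 3 and to 14.3 to 67.0 CPM in the Apelin wild-type libraries. Of 3 of these tested, 2 had a fold change above 0 and 1 below. Cldn4 did not overlap between the groups, with 172, 7.81 and 12.4 CPM against 0 to 4.02 CPM. Krt8, the most abundant, overlapped, with 43.2, 1.55 and 9.99 CPM against 5.30 to 65.3 CPM. The part of these other RNAs in the members' levels was not tested.

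In the sprout ECs all 10 members had a lower fitted level in the libraries labelled Apln STOP, a direction found in 49.5% of the 14557 genes tested. Each was lower by at least 2-fold, against 7.97% of genes, and the median log2 fold change was -1.78 against 0.01 over all genes. None passed the thresholds in edgeR, where 3.03% of genes were called lower. An unadjusted p under 0.05 was reached by 4 members (Nr4a2, Nr4a3, Atf3 and Egr1) against 14.3% of genes in that direction. The groups did not overlap for 8 members, against 29.6% of genes, and 2 against 2 libraries cannot give an exact permutation p below 0.333. DESeq2 called 4 members lower (Nr4a2, Nr4a3, Egr3 and Atf3), against 4.65% of genes.

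Nr4a2 was at 1.08 and 1.47 CPM in the libraries labelled Apln STOP and at 7.73 and 3.31 CPM in those labelled Apln GO. Its log2 fold change was -2.12 (SE 0.52), and its adjusted p of 0.0518 in edgeR was the lowest of the 10. Nr4a3 was at 0.677 and 0.978 CPM against 13.04 and 2.02 CPM, from 10, 12, 221 and 25 counts, with a log2 fold change of -3.20 (SE 1.03, edgeR adjusted p = 0.147). Nr4a1 was at 45.2 and 59.4 CPM against 239 and 87.1 CPM, with a log2 fold change of -1.64 (SE 0.62, edgeR adjusted p = 0.229). For all 3 receptors, both libraries labelled Apln STOP lay below both labelled Apln GO.

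Atf3 was at 10.3 and 18.2 CPM in the libraries labelled Apln STOP against 87.0 and 38.7 CPM, with a log2 fold change of -2.15 (SE 0.55, edgeR adjusted p = 0.119). Fosb was at 92.8 and 90.3 CPM against 530.4 and 159.8 CPM, and Jun at 125 and 129 CPM against 471 and 159 CPM. Fos was at 213 and 306 CPM against 1035 and 262 CPM, and Junb at 71.0 and 163 CPM against 364 and 132 CPM. In these last 2 genes the groups overlapped, since Apln STOP replicate 2 was above Apln GO replicate 2. Egr1 was at 403 and 417 CPM against 1362 and 589 CPM (log2 fold change -1.25, SE 0.44, edgeR adjusted p = 0.174), and Egr3 at 2.78 and 1.38 CPM against 21.6 and 4.20 CPM.

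**Figure D2:**
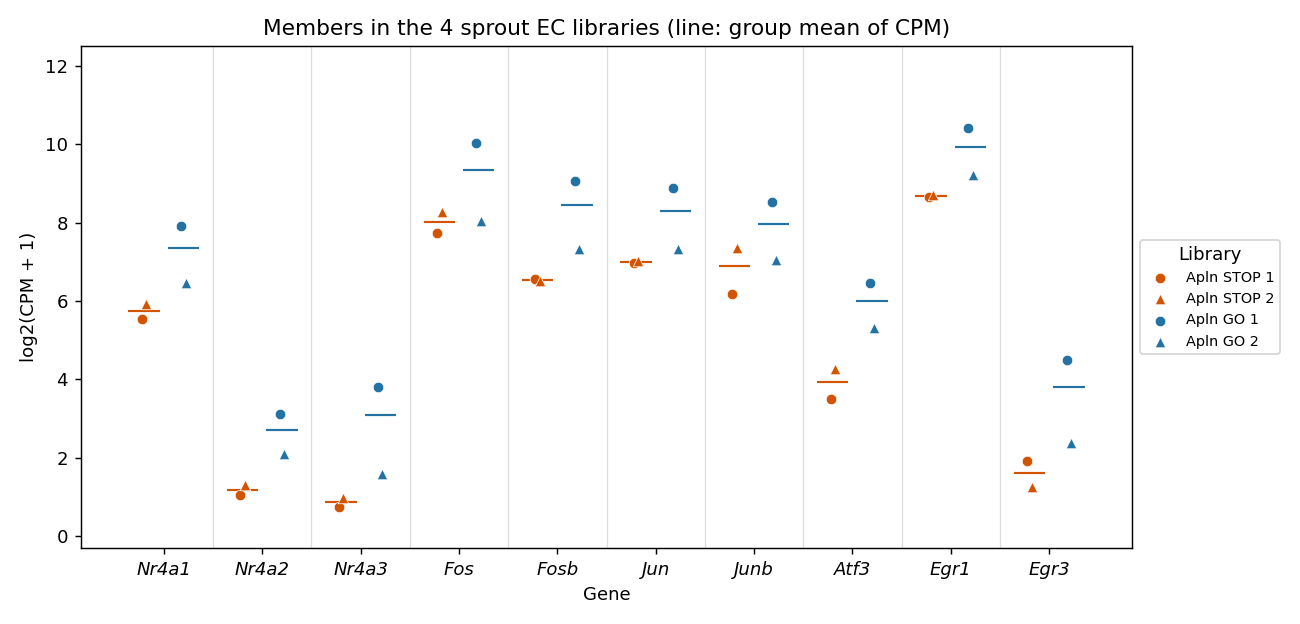
Levels of the 10 members in the 4 sprout EC libraries, as log2(CPM + 1), with orange for libraries labelled Apln STOP, blue for Apln GO, circles for replicate 1, triangles for replicate 2 and a line at the log2 of the group's mean CPM plus 1. The blue circle of Apln GO replicate 1 is the highest point for all 10 genes, and Apln GO replicate 2 lies between it and the orange points or among them.

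Apln GO replicate 1 was the highest library for all 10 members. It exceeded Apln GO replicate 2 by 2.24-fold for Atf3 to 6.46-fold for Nr4a3, with a median of 2.86-fold. With 1 CPM added, all 10 members and 2.78% of the tested genes were at least 2-fold higher in Apln GO replicate 1 than in Apln GO replicate 2, while the median ratio of all genes was 0.977. Apln GO replicate 2 was above the mean of the libraries labelled Apln STOP by 1.01-fold for Fos to 2.71-fold for Atf3. Without Apln GO replicate 1 the median log2 fold change of the members was -0.77. Without Apln GO replicate 2 it was -2.36, with the lone library in each of these fits assumed to vary like those labelled Apln STOP. All 10 fold changes kept their sign with each of the 4 libraries left out.

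**Figure D3:**
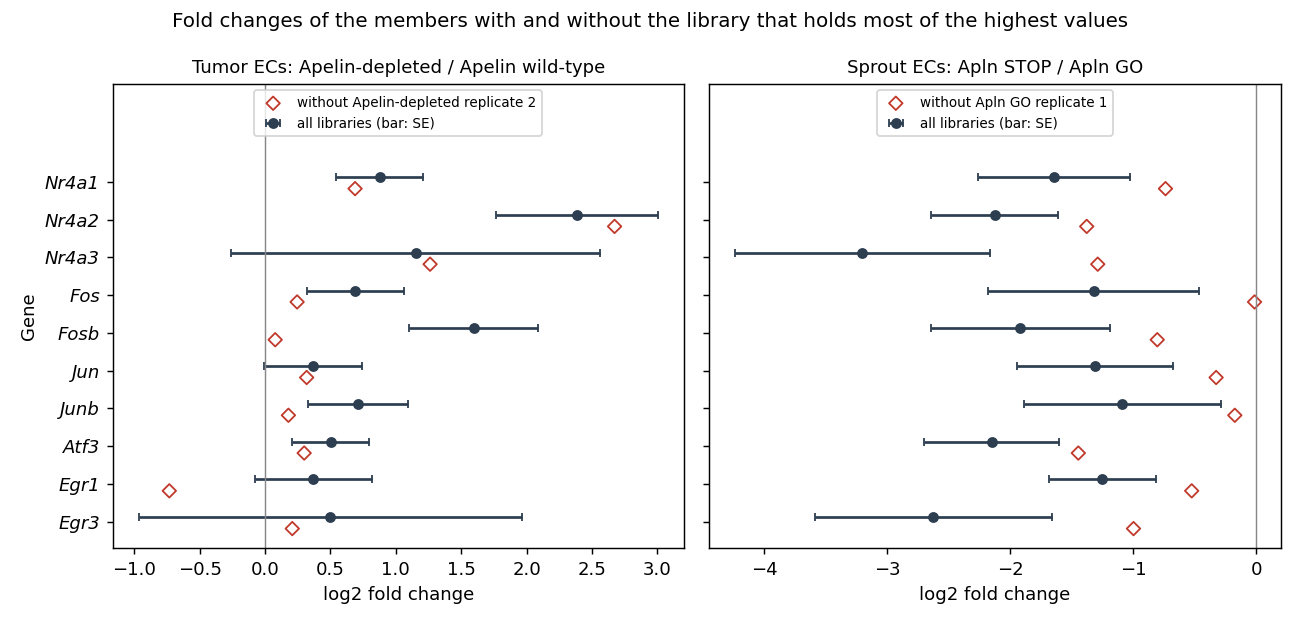
Log2 fold changes of the 10 members in tumor ECs (Apelin-depleted over Apelin wild-type, left) and sprout ECs (Apln STOP over Apln GO, right), with filled circles and SE bars for all libraries and open diamonds without Apelin-depleted replicate 2 or Apln GO replicate 1. The circles lie above 0 on the left and below 0 on the right, and the diamonds lie nearer to 0 for 7 members on the left, with Egr1 crossing it and Nr4a2 and Nr4a3 moving away, and for all 10 on the right.

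The levels of marker genes also differed between the sprout libraries. All 12 endothelial markers were lower in the libraries labelled Apln STOP and 11 were called (median log2 fold change -1.96). Their summed level was 661 and 873 CPM in Apln STOP replicates 1 and 2 and 2645 and 2422 CPM in Apln GO replicates 1 and 2. In these sorted bulk samples fewer ECs and less RNA per EC cannot be told apart. Divided by the endothelial sum, the members' summed level was 1.46 and 1.36 in the libraries labelled Apln STOP and 1.56 and 0.593 in those labelled Apln GO. Per 1000 CPM of endothelial markers the groups overlapped for all 10 members, a division chosen after the data were seen. The 10 pluripotency markers summed to 5671 and 5529 CPM in the libraries labelled Apln STOP and to 2140.5 and 3591 CPM in those labelled Apln GO. The 12 mesenchymal and mural markers, led by Col1a1, were high in Apln STOP replicate 2 and Apln GO replicate 1 (2367 and 2686 CPM) and low in the other libraries (443 and 599 CPM). The 10 epithelial and tumor cell markers summed to 1317 and 959 CPM in the libraries labelled Apln STOP and to 779 and 740.2 CPM in those labelled Apln GO, and 4 of 9 tested had an unadjusted p under 0.05, all higher in the former, against 12.4% of all genes. The most abundant leukocyte marker, Cd68, was at 18.5 to 39.4 CPM in the sprout libraries. The part of these cells in the members' levels was not tested.

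**Figure D4:**
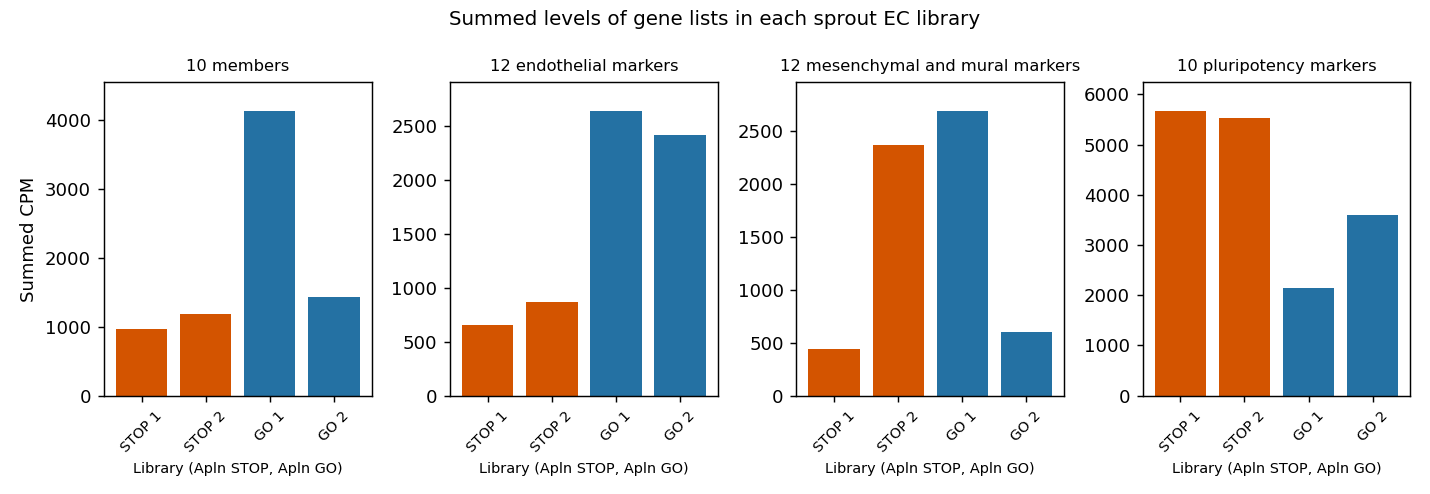
Summed CPM of the members, the endothelial, the mesenchymal and mural, and the pluripotency markers in each sprout EC library, with orange bars for libraries labelled Apln STOP and blue bars for Apln GO, each panel on its own scale from 0. The endothelial sums of the Apln GO libraries differ little (2645 and 2422 CPM), while their member sums are 4131 and 1437 CPM.

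Beyond the members, 61 other immediate-early genes were listed, of which 60 were tested in each set. Of the 60, 51 had a fold change above 0 in the tumor ECs (median log2 fold change 0.49), against 48.1% of all genes, and 0 were called in edgeR. An unadjusted p under 0.05 was reached by 15, all in that direction, against 1.87% of all genes. Rcan1, an inhibitor of calcineurin that NFAT induces, had the lowest p. Its levels were 280.2, 310 and 169 CPM in the Apelin-depleted libraries and 88.2 to 162 CPM in the Apelin wild-type libraries, without overlap (log2 fold change 1.19, SE 0.29, edgeR adjusted p = 0.686). Ptgs2, the inducible cyclooxygenase, was at 81.5 CPM in Apelin-depleted replicate 2 and at 0 to 4.34 CPM in the other 8 libraries. Without Apelin-depleted replicate 2 the median log2 fold change of the list was 0.09.

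Of the same 60 genes, 46 had a lower fitted level in the libraries labelled Apln STOP (median log2 fold change -0.57), against 49.5% of all genes. In edgeR 3 of the 60 were called lower, against 3.03% of all genes, and DESeq2 called 7 in the sprout ECs and 1 in the tumor ECs. Dusp2, a MAP kinase phosphatase, was at 11.3 and 15.6 CPM against 70.3 and 64.6 CPM (log2 fold change -2.33, SE 0.20, edgeR adjusted p = 0.00242). Plk2, a polo-like kinase, and Trib1, a pseudokinase, were called as well (log2 fold change -1.53 and -1.33). Dusp2 and Plk2 differed little between the Apln GO libraries, but a call from 2 libraries per group favours genes with little spread. Without Apln GO replicate 1 the list's median log2 fold change was -0.07. The endothelial markers were also lower in the libraries labelled Apln STOP, and their part in this list's levels was not tested.

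Among 18 further members and partners of the AP-1, EGR and NR4A families, 0 were called in edgeR in either set, while 1 of 16 tested in the tumor ECs had an unadjusted p under 0.05, in the higher direction, against 1.87% of all genes. Of 15 tested in the sprout ECs, 1 reached it in the higher direction, against 12.4% of all genes, and 2 in the lower, against 14.3%. DESeq2 called 2 of them in the sprout ECs and 0 in the tumor ECs. Without a filter on low counts, edgeR called 1 in the sprout ECs and 0 in the tumor ECs. Fosl2, a Fos protein, was at 207, 368 and 198 CPM in the Apelin-depleted libraries against 88.6 to 212 CPM in the tumor ECs, with replicate 2 again highest. Among the sprout libraries, Nab1, a co-repressor of Egr proteins, was at 15.8 and 27.3 CPM in the libraries labelled Apln STOP against 59.4 and 43.4 CPM (log2 fold change -1.26, SE 0.30, edgeR adjusted p = 0.0622).

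Of 38 regulators of immediate-early transcription, 0 were called in the tumor ECs (2 with an unadjusted p under 0.05, both higher, against 1.87% of all genes) and 5 were called lower in the libraries labelled Apln STOP, against 3.03% of all genes. The 5 were Nfatc1, an NFAT factor, Elk3, an SRF partner, the MEF2 factors Mef2a and Mef2c, and Prkd2, a protein kinase D. The 12 endothelial markers were lower in the same libraries, with 11 called. Their part in the levels of these regulators was not tested. Of the list, 2 genes were called without Apln STOP replicate 1 and 3 without Apln GO replicate 1, and 1 with the replicate number as a block. Nfatc1 was at 15.0 and 12.1 CPM against 57.8 and 49.9 CPM (log2 fold change -1.99, SE 0.19, edgeR adjusted p = 0.00324). In the tumor ECs Nfatc2, another NFAT factor, had the lowest p of the list, at 8.16, 20.3 and 7.07 CPM against 0.869 to 4.76 CPM, without overlap (log2 fold change 2.20, SE 0.90, edgeR adjusted p = 0.981).

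A list of 16 endothelial genes known to respond to VEGF or NFAT, some of which the other lists also hold, had a fold change above 0 for 15 of 16 in the tumor ECs (median log2 fold change 0.66), against 48.1% of all genes. An unadjusted p under 0.05 was reached by 8 of them, against 1.87% of all genes in that direction, and 0 were called in edgeR and 1 in DESeq2. Of 15 tested in the sprout ECs, 13 had a lower fitted level in the libraries labelled Apln STOP, against 49.5% of all genes. The median log2 fold change was -1.20 with all libraries and -0.78 without Apln GO replicate 1, beside -1.96 and -1.86 for the 12 endothelial markers, whose part in this list's levels was not tested. In edgeR 3 of the list were called lower, Nrarp, Stc1 and Mef2c, against 3.03% of all genes, and DESeq2 called 6. Nrarp, a Notch target, was at 28.8 and 45.3 CPM against 137 and 124 CPM. None of this list was called without Apln GO replicate 1 or with the replicate number as a block, and 5 were without Apln STOP replicate 2.

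Members left out, the 5 genes whose log2(CPM + 1) had the highest Pearson correlation with the members' mean scaled level over the 9 tumor libraries included Bcr, Rab3il1, Bcl3 and Csrp2, among 9271 genes with a mean of at least 10 CPM. Pearson's r was 0.922 for Bcr, 0.919 for Rab3il1, 0.917 for Bcl3 and 0.888 for Csrp2. Without Apelin-depleted replicate 2 it was 0.846, 0.847, 0.768 and 0.623 in the same order over 8 libraries. These libraries share the sort and library method and differ in depth, and the correlations are a description.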

How the data were processed

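For the tumor ECs, the authors deposited whole-number read counts per gene from featureCounts, without normalization. The study's methods name STAR as the aligner, and the submitters' processing notes name Trim Galore 0.5.0, Bowtie2 2.3.4.1, SAMtools 1.9 and Subread 1.6.2 with build mm10. For the sprout ECs, the authors aligned reads with STAR 2.5.0a and deposited HTSeq 0.6.1p1 counts, and RSEM 1.2.25 expected counts, TPM and transcript lengths. HTSeq left out alignments that were not unique, 42.6% to 49.6% of its tallies, and those outside genes. Polyadenylated RNA was sequenced, and strand use in counting is not given in the sources used here. No RefSeq gene listed in the files overlaps a member.

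From these files, counts were TMM-normalized and tested in a fit per set with edgeR 4.0.16 under R 4.3.3 (low counts filtered by filterByExpr, minimum count 10, robust quasi-likelihood test, Benjamini-Hochberg adjustment over all genes). Calls needed a log2 fold change of at least 1 in size and 0.05 as the adjusted p, the thresholds of the study. Ratios were formed as Apelin-depleted over Apelin wild-type and as Apln STOP over Apln GO. Exact permutation tests on log2(CPM + 1) were two-sided. CPM per kilobase used the mean RSEM length. Rounded expected counts, DESeq2 1.42.0, limma 3.58.1 voom weights, other filters and scalings, the replicate number as a block and each library left out were alternatives. The fits were tested on simulated data, and figures and other tables were made with Python 3.11.15. Replicates differed by 18.1 to 155 times counting error (chi-square per degree of freedom), so none was counted once with another. Libraries, not reads, limit the precision.

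The members and gene lists were chosen with earlier results of these data known. Named genes were all members, Apln, the 5 genes most like the members (1 is not reported here), at most 4 genes of each other list by call and p, and of marker lists Pecam1 and the most abundant genes.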

Additional observations from a re-analysis of the deposited data

Results flagged for a closer look

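Nr4a2 was higher in all 3 Apelin-depleted than in all 6 Apelin wild-type tumor EC libraries (log2 fold change 2.38) and lower in both libraries labelled Apln STOP than in both labelled Apln GO (log2 fold change -2.12). Nr4a2 was not called in edgeR in either set. Groups without overlap in these directions were found for 1.06% of all genes in the tumor ECs and 29.6% in the sprout ECs. Per 1000 CPM of endothelial markers, its groups stayed apart in the tumor ECs and overlapped in the sprout ECs. The difference between the 2 sets of ECs was not tested, since they differ in cell source, library method and depth.

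The summed level of the 12 mesenchymal and mural markers in Apelin wild-type replicate 2 was 5290 CPM, far from the other libraries of its group. It was the only such value among 23 sets of 6 Apelin wild-type values examined, and chance alone gives about 1 in 20.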

How the results depend on the processing

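In the tumor ECs the 10 members' fold changes kept their sign under every alternative except for Egr1. Its log2 fold change was -0.12 with the replicate number as a block, -0.10 with limma voom weights, and between -0.73 and 0.72 with each library left out in turn, lowest without Apelin-depleted replicate 2. DESeq2 called 1 member, 19 genes higher and 97 lower, and without a filter on low counts edgeR called 9 genes higher and 7 lower. With the replicate block 2 genes were called lower, and with each library left out 1 to 2 were. In the sprout ECs every member stayed lower in the libraries labelled Apln STOP. The main edgeR fit called 124 genes higher and 441 lower there, and 0 members. Members called were 4 with DESeq2, 1 without a filter, 0 with the replicate block and 0 to 9 with each library left out. Genes called higher were 279 without a fold-change threshold, 198 with DESeq2, 222 without a filter and 12 to 341 with each library left out, and genes called lower then were 135 to 548. Among the fits with a library left out, the fewest were called without Apln STOP replicate 1 and without Apln GO replicate 1. Genes called lower, the direction of every member, were 626 without a fold-change threshold, 628 with DESeq2 (4.65% of genes) and 632 without a filter. The most members were called without Apln GO replicate 2. That fit leaves a lone Apln GO library, the highest for all 10 members, so no conclusion is drawn from its calls. The replicate block called 3 genes higher and 41 lower. Replicate numbers are shared between groups. Deviations from the group means correlated by -0.05 on average over 3 tumor pairs, which were taken to share only a number. In the sprout ECs they correlated by -0.43. With 2 libraries per group both sprout pairs give the same value, so it cannot show whether these libraries share more than a number. With crossed numbers as the block, chosen after seeing the data, 5 members were called, with 302 genes higher and 933 lower. The cause of these shifts was not tested. Genes under 3 counts per library, below 0.177 to 0.596 CPM, cannot be told from absent.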

Other observations

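Among the 10 blood lineage markers, 9 were tested in the sprout ECs. All 9 had a lower fitted level in the libraries labelled Apln STOP, against 49.5% of all genes. In edgeR 2 were called lower, against 3.03% of all genes: Tal1 and Runx1, factors of blood stem cell formation. The 12 endothelial markers were lower there as well, with 11 called. Tal1 was at 9.35 and 6.92 CPM against 44.8 and 48.8 CPM (log2 fold change -2.52, SE 0.21, edgeR adjusted p = 0.00242). Hbb-bh1, an embryonic globin gene, was at 32.1 and 9.21 CPM against 78.9 and 167 CPM. Tal1 and Hbb-bh1 were highest in Apln GO replicate 2, while Hbb-y, another embryonic globin gene, was at 53.8 and 49.3 CPM in Apln GO replicates 1 and 2 and Runx1 at 37.1 and 25.1 CPM.

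Of 14 heat shock genes, 0 were called in either set with edgeR, while 1 in the tumor ECs had an unadjusted p under 0.05, in the higher direction, against 1.87% of all genes. Of the 14, 6 reached it in the sprout ECs, higher in the libraries labelled Apln STOP, against 12.4% of all genes, and 1 lower, against 14.3%. In the sprout ECs 7 of the 14 had a fold change above 0 and 7 below. Their summed level there was 9179 and 9408 CPM in the libraries labelled Apln STOP and 7365 and 8279 CPM in those labelled Apln GO. Of the leukocyte markers, Lyz2, a macrophage gene, was at 601 CPM in Apelin-depleted replicate 1 and 455 CPM in Apelin wild-type replicate 4 and at 2.18 to 23.1 CPM in the other 7 tumor libraries.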
